A study of Mus musculus with 10 samples.

Results

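Axon guidance genes encode the cues and receptors by which growing axons and migrating cells find their way. They were taken as the protein-coding genes on mouse autosomes whose symbols begin with Sema, Plxn, Epha, Ephb, Efna, Efnb or Unc5, together with Slit1 to Slit3, Robo1 to Robo4, Ntn1, Ntn3, Ntn4, Nrp1, Nrp2 and Dcc. In the GENCODE annotation of mm9 this gave 68 of the 21418 autosomal protein-coding genes, with 34 ligand genes, 32 receptor genes and 2 genes, Unc50 and Unc5cl, that share the Unc5 letters but are not netrin receptors. The X-linked genes Plxna3, Plxnb3 and Efnb1 were left out. Efna5 has 2 annotated records, and the second one (2416 bp) lies within the first, so its start site is not that of a separate gene. Both records are counted among the 34 ligands and the 68 genes.

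ChIP-seq of formaldehyde-fixed cells mapped Polycomb group (PcG) proteins in ESCs of the mouse line J1, which were grown with serum and leukemia inhibitory factor on inactivated feeder cells that were depleted before fixation. The same was done in NSCs that were differentiated from the same J1 line in culture and kept in EGF and FGF. All cells were under standard growth conditions and none carried a treatment. ESCs were profiled for Ring1b, Cbx2, Ezh2 and H3K27me3, and NSCs for Ring1b and H3K27me3. Each list of peaks comes from 1 library, so that no difference between ESCs and NSCs has a replicate check, and each cell type is represented by 1 line.

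PcG proteins keep developmental genes silent. PRC1, which contains Ring1b and a Cbx protein such as Cbx2, ubiquitylates histone H2A and compacts chromatin, and PRC2, through its enzyme Ezh2, places H3K27me3, which Cbx proteins can read. Both complexes gather at CpG islands, stretches of DNA rich in CpG dinucleotides that surround many start sites. Guidance molecules form ligand and receptor families. Semaphorins signal through plexins, often with neuropilins as co-receptors, ephrins through Eph receptor tyrosine kinases, netrins through Dcc and the Unc5 receptors, and Slits through Robo receptors. In the developing brain these pairs steer axons toward or away from their targets and position migrating neurons.

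The 250 bases before 4 start sites are shown to set the range of CpG content beside the PcG status described in the rest of the text. They were read from the mm9 genome 5′ to 3′ on the strand of the gene, with every CpG in capitals. Efna5 (chr17:63230667-63230916, reverse strand) had peaks of all 4 ESC targets and no NSC peak. Slit2 (chr5:48374144-48374393, forward) had an NSC H3K27me3 peak of 3800 bp. Of all autosomal genes with NSC H3K27me3, 28.2% had a peak at least as wide. Epha7 (chr4:28740031-28740280, forward) had the widest NSC Ring1b peak among the guidance genes. Robo4 (chr9:37209232-37209481, forward) had the lowest CpG ratio among the guidance genes that had no peak in any list. Epha7 was chosen after its values were seen.
Efna5: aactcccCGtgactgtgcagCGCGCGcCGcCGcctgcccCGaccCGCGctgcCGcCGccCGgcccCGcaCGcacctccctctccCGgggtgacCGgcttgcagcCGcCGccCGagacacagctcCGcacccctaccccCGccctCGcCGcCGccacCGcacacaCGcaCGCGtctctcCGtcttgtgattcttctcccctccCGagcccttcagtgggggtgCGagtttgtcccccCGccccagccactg
Slit2: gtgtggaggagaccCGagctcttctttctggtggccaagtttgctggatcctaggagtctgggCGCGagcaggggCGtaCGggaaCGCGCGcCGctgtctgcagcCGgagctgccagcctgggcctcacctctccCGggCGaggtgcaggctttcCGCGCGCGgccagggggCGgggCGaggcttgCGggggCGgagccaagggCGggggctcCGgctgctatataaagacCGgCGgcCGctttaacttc
Epha7: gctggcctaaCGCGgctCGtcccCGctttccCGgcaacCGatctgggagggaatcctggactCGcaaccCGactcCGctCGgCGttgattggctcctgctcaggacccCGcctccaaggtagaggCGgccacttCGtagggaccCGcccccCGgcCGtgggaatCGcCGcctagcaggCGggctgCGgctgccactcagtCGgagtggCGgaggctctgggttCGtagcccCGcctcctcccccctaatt
Robo4: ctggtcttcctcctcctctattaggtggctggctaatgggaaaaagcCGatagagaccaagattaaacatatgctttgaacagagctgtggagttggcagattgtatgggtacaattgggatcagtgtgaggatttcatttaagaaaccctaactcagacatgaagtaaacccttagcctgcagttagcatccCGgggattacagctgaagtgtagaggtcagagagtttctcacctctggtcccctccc
These stretches hold 32 CpGs before Efna5, 25 before Slit2, 25 before Epha7 and 2 before Robo4. Over all autosomal protein-coding genes the median was 9 CpGs in the same window, 5.34% of genes had at least 32 and 12.3% had at least 25. Robo4 was chosen for its low CpG ratio, so its place in this range is no result.

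A start site, the 5′ end of the gene record, was counted as bound when a peak lay within 1 kb of it. In ESCs 30 of the 68 guidance genes (44.1%, 95% Clopper-Pearson interval 32.1% to 56.7%) were bound by Ring1b, where 8.22% of all autosomal protein-coding genes were. H3K27me3 was found at 22 of 68 (32.4%, 21.5% to 44.8%), against 6.55% of all genes. Ezh2 was found at 13 (19.1%, 10.6% to 30.5%), against 3.60%, and Cbx2 at 5 (7.35%, 2.43% to 16.3%), against 1.64%. In each ESC list the share of guidance genes was above that of all genes, and the background lay below the interval. For Cbx2 this depended on the rule: with the start site inside the peak it was found at 1 guidance gene (1.47%, background 1.20%), and peaks at least 2 kb wide lay at 0 (background 1.14%). These intervals cover counting error over genes only, and genes of 1 library are not replicates.

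In NSCs far fewer guidance genes were bound. Ring1b peaks lay at 4 of 68 start sites (5.88%, 1.63% to 14.4%), with a background of 2.38%, and H3K27me3 peaks at another 4 (5.88%, 1.63% to 14.4%), with a background of 2.66%. Both backgrounds fall inside the interval. The NSC lists were also shorter over the whole genome, with 1389 and 1647 peaks compared with 2335 and 2192 in ESCs, and the tags behind each library are unknown, so the part of peak calling in the difference was not tested.

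**Figure D1:**
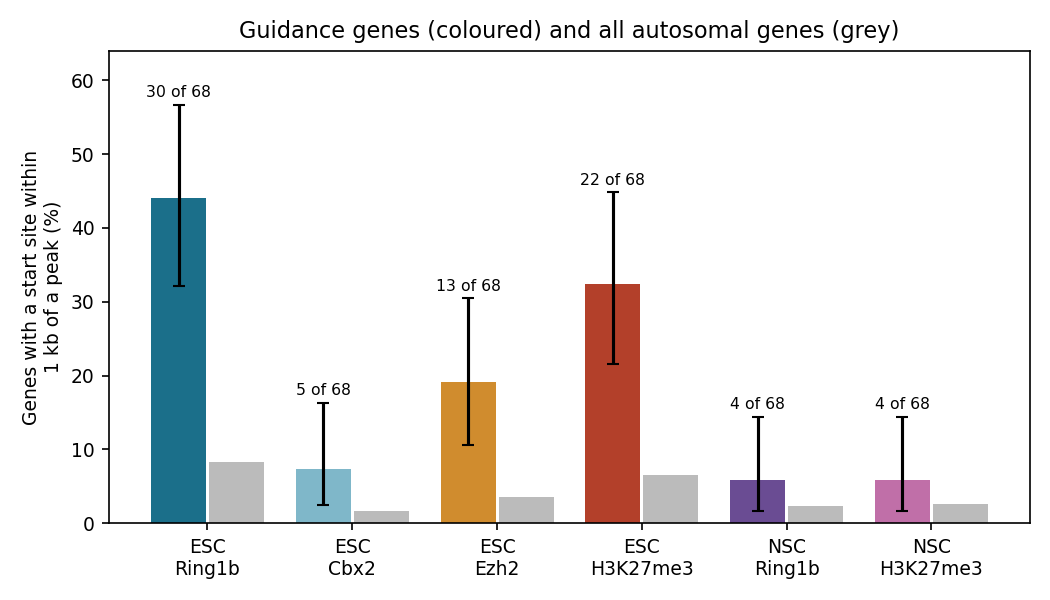
Percentage of genes with a start site within 1 kb of a peak, for the 68 guidance genes (coloured bars, with 95% Clopper-Pearson intervals) and all 21418 autosomal protein-coding genes (grey bars), in each of the 6 lists. ESC Ring1b and H3K27me3 reach 44.1% and 32.4% of guidance genes, and each NSC list reaches 5.88%.

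In all, 34 of 68 guidance genes (37.6% to 62.4%) had a peak of at least 1 list at the start site, with a background of 10.9%. Each of the 34 had an ESC peak (background 9.85%), and no start site was bound in NSCs alone. Either NSC list reached 8 of 68 (11.8%, 5.22% to 21.9%), with a background of 4.07%. Ring1b was the only ESC target at 11 genes (16.2%, background 2.79%). At least 3 of the 4 ESC targets were found at 12 genes (17.6%, background 3.29%), and all 4 at 5 genes (7.35%, background 1.32%). Once a start site was bound by Ring1b in ESCs, the shares at which other targets joined it were near those of all genes. H3K27me3 joined at 19 of 30 (63.3%, background 61.1%), Ezh2 at 12 of 30 (22.7% to 59.4%, background 41.7%) and Cbx2 at 5 of 30 (16.7%, background 18.9%). The intervals are wide at 30 genes, so smaller differences would not be visible.

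**Figure D2:**
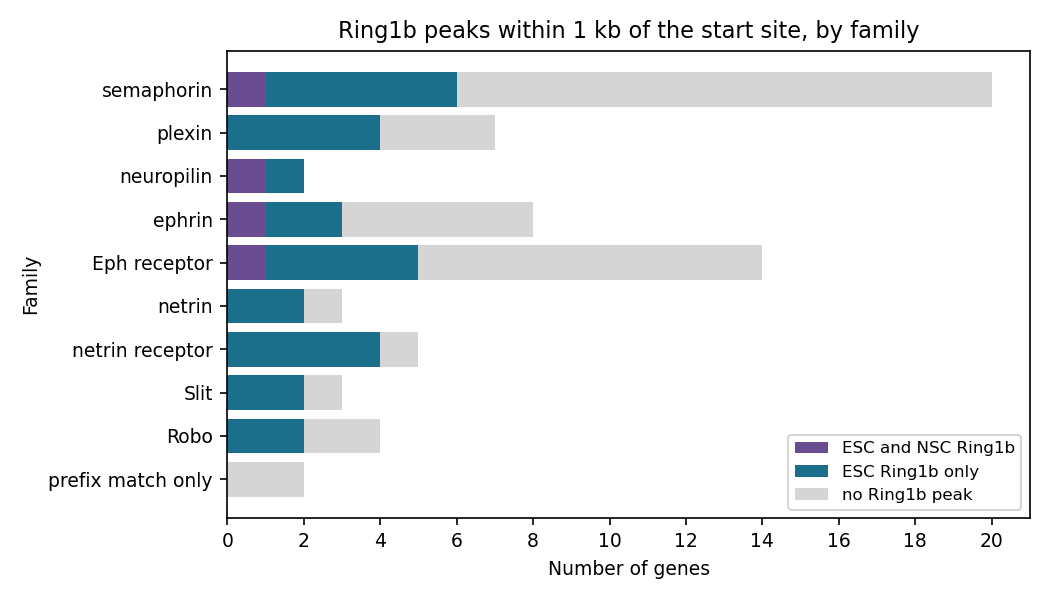
Number of guidance genes per family with a Ring1b peak within 1 kb of the start site in ESCs and NSCs, in ESCs only, or in neither. The purple segments hold 1 gene each, in the semaphorin, neuropilin, ephrin and Eph receptor families, and the 2 prefix matches, Unc50 and Unc5cl, have no Ring1b peak.

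Among the ligands, 13 of 34 genes (38.2%, 22.2% to 56.4%, background 8.22%) were bound by Ring1b in ESCs. H3K27me3 was carried by 10 (29.4%, 15.1% to 47.5%, background 6.55%). The same backgrounds apply to the family counts that follow. Semaphorins are the largest family, and 6 of 20 were bound by Ring1b. Bound members were spread unevenly over the classes, which differ in how the protein is held at the membrane. Of the class 3 semaphorins, which are secreted, Ring1b was found at 1 of 7 (Sema3f), and of class 4, which span the membrane, at 1 of 6 (Sema4c). Class 5, which also span the membrane and carry thrombospondin repeats, had both members bound, Sema5a and Sema5b. Class 6 had 1 of 4 (Sema6a), and Sema7a, which has a lipid anchor, was bound. These classes are too small for a difference between them to be read from the counts.

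Sema5b and Sema6a were the semaphorins with peaks of all 4 ESC targets. At Sema5b (ENSMUSG00000052133.9, chromosome 16, forward strand) the ESC Ring1b peak spanned 4000 bp (chr16:35540001-35544000), the H3K27me3 peak 3000 bp, the Ezh2 peak 2400 bp and the Cbx2 peak 1200 bp. All 4 peaks held the start site. At Sema6a the Ring1b peak was 5200 bp wide and held the start site, whereas the Cbx2 and H3K27me3 peaks began 924 bp and 724 bp downstream of it. Sema3d and Sema6d each had a single narrow peak, of H3K27me3 (1000 bp) at Sema3d and of Ezh2 (1200 bp) at Sema6d.

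Of the 8 ephrin records 3 were bound by Ring1b in ESCs, and the same 3 carried H3K27me3. Efna5, a GPI-anchored ligand that helps to lay out topographic maps in the brain, had the widest ESC Ring1b peak of all guidance genes. It spanned 6200 bp (chr17:63227801-63234000), from 3334 bp upstream to 2865 bp downstream of the start site, and was joined by Ezh2 (3400 bp), H3K27me3 (3200 bp) and Cbx2 (1800 bp). Of the Ring1b peaks at all autosomal start sites, 14.1% were as wide. At Efna3 the Ring1b peak was 4600 bp and the H3K27me3 peak 3800 bp wide. At Efnb2, a transmembrane ephrin, the Ring1b peak of 1800 bp also lies within 1 kb of the start site of 4921522P10Rik, which is 562 bp from that of Efnb2, so the peak cannot be assigned to either gene. No other guidance gene bound by Ring1b in ESCs had the start site of another protein-coding gene within 1 kb of its own.

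Netrins and Slits are secreted ligands. Ntn1 and Ntn4 were bound by Ring1b in ESCs, and Ntn3 was in no list. At Ntn1 the result depends on the start site that is used. The annotated 5′ end of Ntn1 had only a Ring1b peak of 1000 bp, 725 bp downstream. The other transcript starts lie 13811 bp and 13997 bp further into the gene and had peaks of all 4 ESC targets, with Ring1b over 3200 bp (chr11:68197801-68201000), Cbx2 over 2600 bp, and Ezh2 and H3K27me3 over 2200 bp each. NSC lists had no peak at any of the Ntn1 starts. Slit1 had Ring1b (1600 bp) and H3K27me3 (1000 bp), Slit2 had Ring1b (4200 bp), and Slit3 had only an H3K27me3 peak of 1000 bp.

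Among the receptors, 17 of 32 genes (53.1%, background 8.22%) were bound by Ring1b in ESCs and 12 (37.5%, background 6.55%) carried H3K27me3. The interval for receptors reached from 34.7% upward and includes the share of ligands, so ligands and receptors could not be told apart by these counts. All 4 Unc5 genes, which encode the repulsive netrin receptors, carried both Ring1b and H3K27me3 in ESCs. Their Ring1b peaks were 2800 bp at Unc5a, 4200 bp at Unc5b, 3000 bp at Unc5c and 2000 bp at Unc5d, and each held the start site. Ezh2 joined them at Unc5a (1200 bp) and Unc5b (1400 bp). Dcc, the attractive netrin receptor, had no peak in any list. Its annotated gene spans 1092332 bp of chromosome 18 and had no peak of any of the 6 lists within it.

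Plexins were bound at 4 of 7 genes. Plxnc1 and Plxnd1 had peaks of all 4 ESC targets, with Ring1b over 3600 bp and 3200 bp, H3K27me3 over 2400 bp and 4400 bp, Ezh2 over 2000 bp and 2600 bp, and Cbx2 over 1000 bp and 1400 bp. Plxna4 had Ring1b (2600 bp), Ezh2 (1800 bp) and H3K27me3 (3800 bp), and Plxna2 had Ring1b alone (1000 bp). Plxna1, Plxnb1 and Plxnb2 were in no list. The plexins thus ranged from genes with all 4 ESC targets to genes with none. Both neuropilins, the co-receptors of secreted semaphorins, were bound by Ring1b. At Nrp1 the Ring1b peak (3600 bp) was joined by Ezh2 (2000 bp) and H3K27me3 (3200 bp). At Nrp2 it was wider (5800 bp) and held an Ezh2 peak 2342 bp downstream of the start site, but no H3K27me3 peak lay within 5 kb.

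Eph receptors were bound by Ring1b at 5 of 14 genes, with 3 of 9 in the A class and 2 of 5 in the B class. Epha5 had Ring1b (3000 bp), H3K27me3 (2000 bp) and Ezh2 (1800 bp), and Ephb1 had Ring1b (3400 bp), H3K27me3 (2000 bp) and Ezh2 (1200 bp). Epha6, Epha7 and Ephb2 had Ring1b without the other targets within 1 kb, with widths of 1000 bp, 2800 bp and 1400 bp. At Epha7 an Ezh2 peak of 1400 bp began just outside the limit, 1320 bp downstream of the start site, inside the Ring1b peak. Epha3 had only H3K27me3 (1400 bp). No Eph receptor had a Cbx2 peak at its start site. Of the Robo receptors, Robo2 had Ring1b (1200 bp) and Robo3 had Ring1b (1800 bp) with H3K27me3 (1200 bp). Robo1 and Robo4, the latter known from blood vessels, had no peak.

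**Figure D3:**
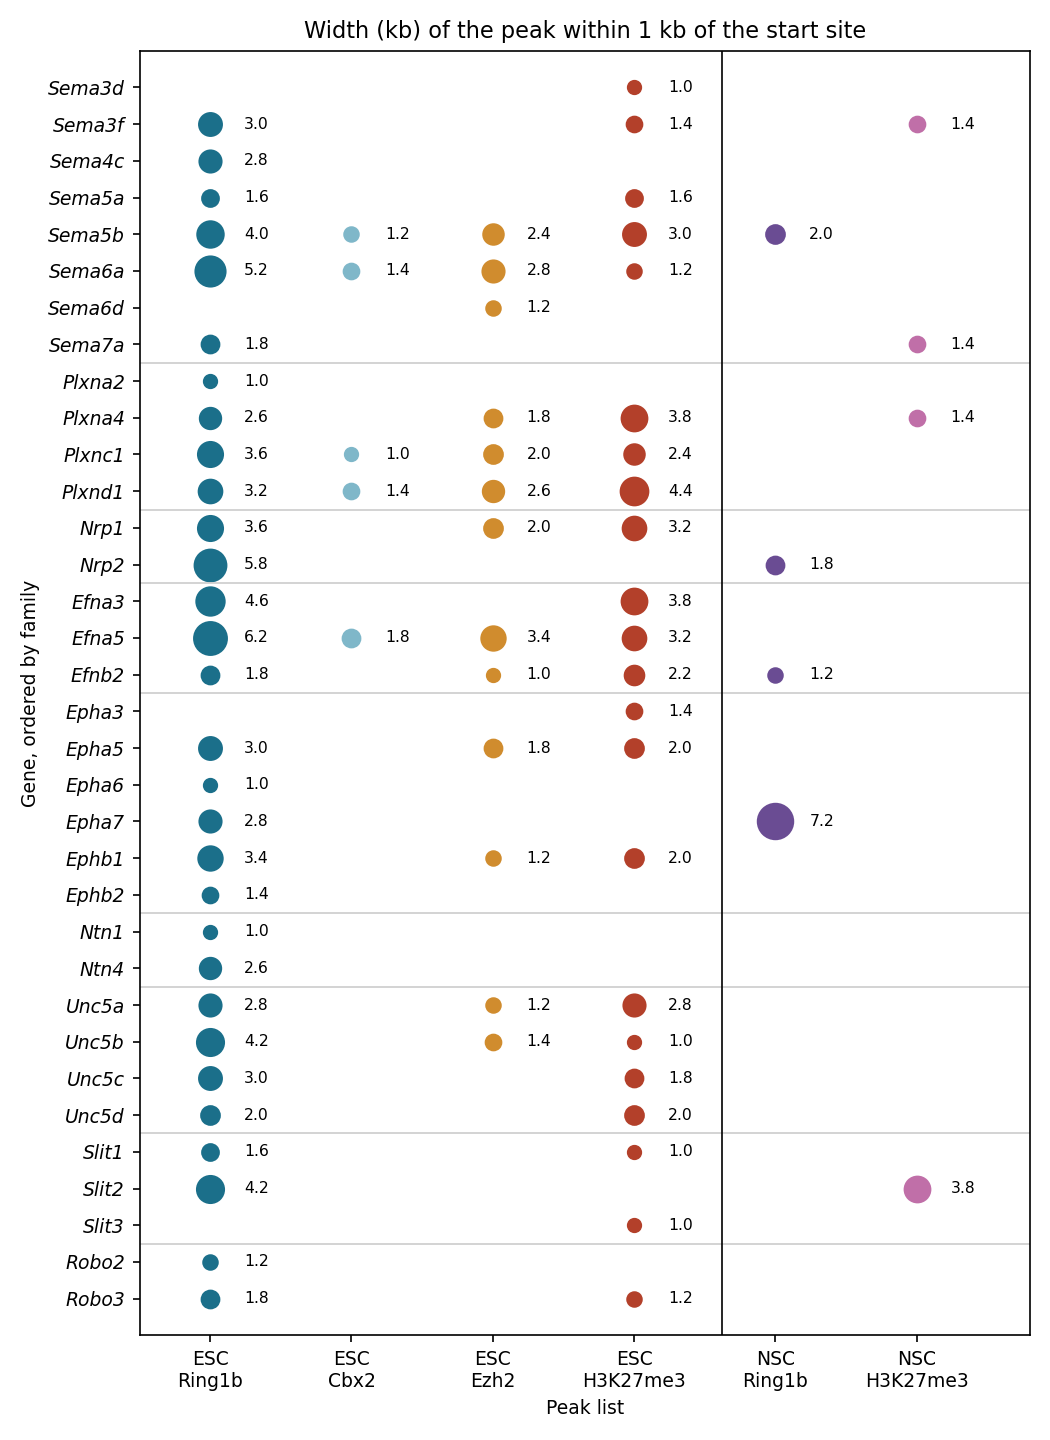
Width in kb of the peak within 1 kb of the start site for the 34 guidance genes with a peak in at least 1 of the 6 lists (columns), with dot area in proportion to width and grey lines between families. ESC Ring1b has 30 dots and ESC H3K27me3 22, while the NSC columns hold 4 Ring1b dots and 4 H3K27me3 dots that fall on different genes.

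The peaks at guidance genes were of ordinary or small width. ESC Ring1b peaks had a median width of 2800 bp at guidance genes and 2400 bp at all bound autosomal genes, and H3K27me3 peaks 2000 bp and 1800 bp. Cbx2 peaks were narrower than at other bound genes, with a median of 1400 bp over 5 guidance genes (1000 to 1800 bp) and 3400 bp over 352 genes. These medians are taken over genes, so a peak at several start sites counts more than once. Over all 1033 ESC Cbx2 peaks the median was 1400 bp, as at the guidance genes. The peaks reached further into the gene than away from it. The centre of the ESC Ring1b peak lay downstream of the start site at 26 of 30 guidance genes (86.7%), where 78.5% of all bound genes had it there. The median peak reached 583.5 bp upstream and 1998.5 bp downstream of the start site.

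From ESCs to NSCs, Ring1b was lost at 26 of the 30 bound guidance genes (86.7%, 69.3% to 96.2%). Over all autosomal genes bound by Ring1b in ESCs, 80.2% lost it, which lies inside this interval, so the loss at guidance genes was near that of other Ring1b-bound genes. H3K27me3 was lost at 20 of 22 (90.9%, 70.8% to 98.9%), with a background of 70.9%, which lies at the lower end of the interval. The 20 include Efna3 and Unc5b, where an NSC H3K27me3 peak overlapped the ESC one but lay just beyond 1 kb. With a limit of 5 kb, 24 genes had ESC H3K27me3 and 19 lost it (27.9% of 68, background 5.31%). Taken over all 68 start sites at the limit of 1 kb, 38.2% lost Ring1b (background 6.59%) and 29.4% lost H3K27me3 (background 4.64%). Of the 30 genes bound by Ring1b in ESCs, 8 (26.7%, background 34.8%) had an NSC peak of either kind.

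The genes with at least 3 ESC targets and no NSC peak at the start site were Sema6a, Plxnc1, Plxnd1, Nrp1, Efna5, Epha5, Ephb1, Unc5a and Unc5b. Among the 5 guidance genes with peaks of all 4 ESC targets, only Sema5b had one (1 of 5, interval 0.505% to 71.6%), whereas 69.6% of all autosomal genes with all 4 ESC targets did. The interval from 5 genes still includes the background.

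Ring1b was kept at Sema5b, Nrp2, Efnb2 and Epha7, which are 4 of 30 (13.3%, 3.76% to 30.7%), with a background of 19.8%. At Sema5b the peak was 4000 bp in ESCs and 2000 bp in NSCs, at Nrp2 5800 bp and 1800 bp, and at Efnb2 1800 bp and 1200 bp. Epha7 went the other way. Its Ring1b peak was 2800 bp wide in ESCs (chr4:28740401-28743200) and 7200 bp in NSCs (chr4:28738801-28746000), from 1480 bp upstream to 5719 bp downstream of the start site. Of the 510 autosomal genes with NSC Ring1b, 85 (16.7%) had a peak at least as wide. Epha7 encodes a receptor tyrosine kinase that is used widely in the forming brain. At Nrp2 a second NSC Ring1b peak of 1000 bp lay 2942 bp downstream of the start site, inside the stretch that the ESC peak covered.

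H3K27me3 was kept at Sema3f and Plxna4, which are 2 of 22 (9.09%, 1.12% to 29.2%), with a background of 29.1%. Out of all 68 start sites this was 2.94%, against 1.90% of all genes. The peak at Sema3f was 1400 bp wide in both cell types, and that at Plxna4 3800 bp in ESCs and 1400 bp in NSCs. H3K27me3 was gained at Sema7a and Slit2, 2 of the 46 start sites that lacked it in ESCs (4.35%, 0.531% to 14.8%), with a background of 0.809%. Out of all 68 this was again 2.94%, against 0.756% of all genes. Both were bound by Ring1b in ESCs and not in NSCs. At Sema7a the NSC peak of 1400 bp began 881 bp downstream of the start site. Ring1b was gained at 0 of 38 start sites that lacked it, which allows a share of up to 7.89% (3 counts of the total), with a background of 0.819%.

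No guidance gene had both Ring1b and H3K27me3 within 1 kb of its start site in NSCs, where 0 of 68 allows up to 4.41% by the limit of 3 counts, and 0.971% of all genes had both. Among starts with NSC Ring1b, H3K27me3 was found at 40.8% of all autosomal genes and at 0 of 4 guidance genes, which are too few to set apart from the background. The 8 NSC-bound guidance genes therefore fell into 4 with Ring1b and 4 with H3K27me3. This division rests on the 1 kb limit in the case of Epha7, where an NSC H3K27me3 peak of 1600 bp (chr4:28741401-28743000) began 1120 bp downstream of the start site and lay wholly inside the NSC Ring1b peak.

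**Figure D4:**
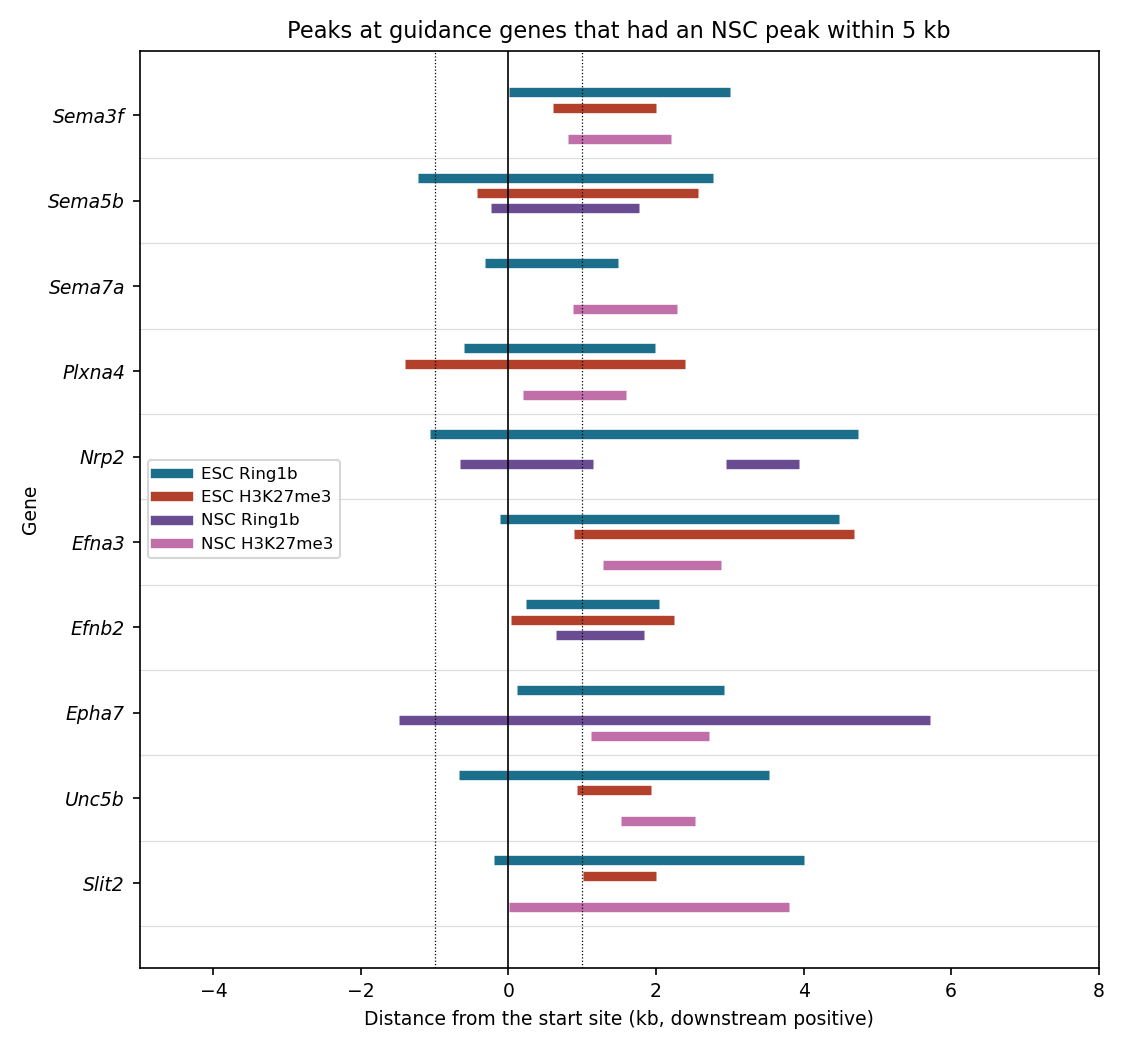
Position of Ring1b and H3K27me3 peaks of ESCs and NSCs along 10 guidance genes that had an NSC peak within 5 kb of the start site, as distance from the start site in kb with the gene running to the right. Dotted lines mark 1 kb, and the NSC Ring1b bar of Epha7 extends past its ESC bar on both sides while the NSC bars of Sema5b, Nrp2 and Efnb2 lie inside their ESC Ring1b bars.

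Several calls stood close to the limit of 1 kb. Just inside it were Cbx2 at Sema6a (924 bp), H3K27me3 at Unc5b (929 bp) and Efna3 (887 bp) in ESCs, and H3K27me3 at Sema7a (881 bp) and Sema3f (806 bp) in NSCs. Just outside it were Ezh2 and H3K27me3 at Slit2 in ESCs, which both began 1007 bp downstream of the start site, and Ezh2 at Epha7 (1320 bp). The gain of H3K27me3 at Slit2 is therefore a matter of 7 bp. In ESCs a peak of 1000 bp lay from 1007 to 2006 bp downstream, and in NSCs a peak of 3800 bp (chr5:48374401-48378200) reached from 7 to 3806 bp and covered it. What differed at Slit2 was the extent of the H3K27me3 peak and the absence of a Ring1b peak in NSCs, where the ESC Ring1b peak spanned 4200 bp. NSC H3K27me3 peaks also lay just outside the limit at Efna3 (1287 bp) and Unc5b (1529 bp), in both cases inside the ESC Ring1b peak. Both also overlapped the ESC H3K27me3 peak of the gene, so the loss of H3K27me3 counted there rests on the 1 kb limit.

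With a window of 5 kb to each side of the start site, ESC Ring1b peaks touched 30 of the 68 guidance genes and covered 86800 bp, a mean of 1276 bp per gene. NSC Ring1b peaks touched 4 and covered 12481 bp, or 184 bp per gene. H3K27me3 peaks touched 24 genes in ESCs and covered 50000 bp (735 bp per gene), and touched 7 in NSCs and covered 12200 bp (179 bp per gene). The wider window thus added no Ring1b-bound gene in either cell type, and it raised the number of genes with NSC H3K27me3 from 4 to 7. Over all autosomal genes the shares within 5 kb of a peak were 9.02% for ESC Ring1b, 2.96% for NSC Ring1b, 7.64% for ESC H3K27me3 and 3.31% for NSC H3K27me3. The matching shares of guidance genes were 44.1%, 5.88%, 35.3% and 10.3%.

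Guidance genes had CpG-rich start sites. A start site was called CpG-rich when the 1 kb around it had a ratio of observed to expected CpGs of at least 0.6 and a GC content of at least 50%. This held for 48 of 68 guidance genes (70.6%, background 45.1%). Among CpG-rich starts alone, Ring1b was found in ESCs at 25 of 48 guidance genes (52.1%, 37.2% to 66.7%) and at 14.5% of all autosomal genes, so the share of guidance genes was also above the background within this group. Of the 20 other starts, 5 were bound (8.66% to 49.1%), with a background of 3.09%. Counted the other way, 25 of the 30 guidance genes with ESC Ring1b had CpG-rich starts (83.3%, background 79.4%), as did 23 of the 38 without it (60.5%, background 42.0%).

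The CpG ratio had a median of 0.752 at guidance genes bound by Ring1b in ESCs and 0.743 at all bound autosomal genes. At guidance genes without Ring1b it was 0.635, and at all such genes 0.512. The 5 genes with peaks of all 4 ESC targets had a median of 0.877, from 0.694 to 0.945, and the 34 genes in no list had a median of 0.632, from 0.163 to 0.970. The ranges overlap, and CpG-rich starts without a peak included Plxna1 (0.970), Epha8 (0.881), Plxnb1 (0.881), Efna2 (0.867) and Sema3c (0.842). The lowest ratios belonged to Robo4 (0.163), Sema3b (0.170), Sema3g (0.177), Sema4a (0.182) and the second Efna5 record (0.178), none of which had a peak.

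**Figure D5:**
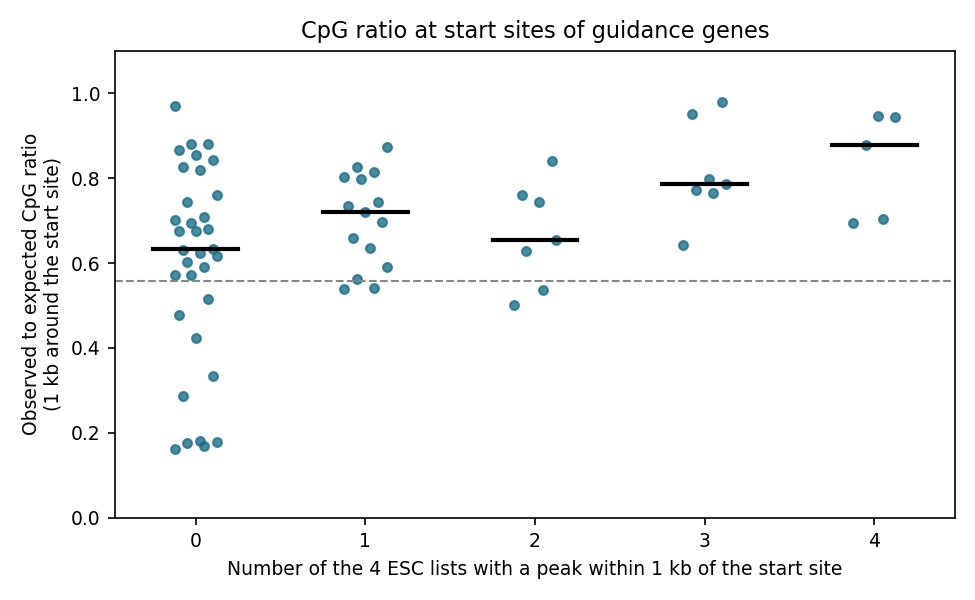
Ratio of observed to expected CpGs in the 1 kb around the start site of each of the 68 guidance genes, by the number of ESC lists with a peak within 1 kb. Black lines are medians (0.632 for genes in no list, 0.877 for genes in all 4) and the dashed line is the median of all autosomal genes, 0.559.

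Guidance genes were also long. Of the 68, 31 (45.6%, background 10.6%) were at least 100 kb long. Among genes of that length Ring1b was found in ESCs at 21 of 31 guidance genes (67.7%, 48.6% to 83.3%), with a background of 20.2%, and among shorter genes at 9 of 37 (24.3%, 11.8% to 41.2%), with a background of 6.79%. Bound guidance genes had a median length of 149993 bp and unbound ones of 26319 bp. Over all autosomal genes, bound ones were also longer, with medians of 28718 bp and 14895.5 bp. In both length classes the share of guidance genes was above the background.

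The guidance genes in no list were Sema3a, Sema3b, Sema3c, Sema3e, Sema3g, Sema4a, Sema4b, Sema4d, Sema4f, Sema4g, Sema6b, Sema6c, Plxna1, Plxnb1, Plxnb2, Efna1, Efna2, Efna4, the second Efna5 record, Efnb3, Epha1, Epha2, Epha4, Epha8, Epha10, Ephb3, Ephb4, Ephb6, Ntn3, Dcc, Robo1, Robo4, Unc50 and Unc5cl. In no list here means no peak within 1 kb of the 5′ end, and says only that no window there passed the threshold of the authors. Some of these genes had peaks further in. ESC H3K27me3 lay at Epha10 (1600 bp, 1658 bp from the start site), Sema6b and Sema6c, and ESC Ring1b at Sema6c. ESC Cbx2 lay in an intron of Epha10, and NSC Ring1b in introns of Sema3a and Sema4d. Expression was not analysed here.

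Other genes of the guidance pathway were taken from 2 lists. The first holds further cues and surface partners, such as the repulsive guidance molecules, netrin-G proteins, Flrt proteins and contactins. Of its 18 symbols, 17 matched 19 gene records (Draxin had no record of that name). In ESCs 8 of the 19 (42.1%, 20.3% to 66.5%, background 8.22%) were bound by Ring1b (Rgma, Rgmb, Flrt2, Ntng1, Ntng2, Cntn1, Nrcam and Ncam1). H3K27me3 was carried by 7 (36.8%, background 6.55%). Only Ntng2 had peaks of all 4 ESC targets (background 1.32%). In NSCs 0 had Ring1b, which allows up to 15.8% and so includes the background of 2.38%. H3K27me3 was found there at 1, Flrt2 (5.26%, background 2.66%). The second list holds proteins that act inside the cell downstream of guidance receptors, and all 25 symbols matched, to 26 records. Of these, 4 (15.4%, 4.36% to 34.9%) were bound by Ring1b in ESCs (Dpysl5, Crmp1, Trio and Chn2), and the background of 8.22% lies inside that interval. Dpysl5 also had Ring1b and H3K27me3 in NSCs, and Chn1 had Ring1b there. The share bound in ESCs was thus close to that of the guidance ligands and receptors for the surface partners, and its interval included the background for the signalling proteins.

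Marker genes were used to set the lists beside the labels. The start sites of Pou5f1, Nanog and Zfp42, genes of pluripotent cells, were in no list, in ESCs or in NSCs. Sox2, which the paper also used as a marker of NSCs, had H3K27me3 in both cell types and Ring1b in neither. Olig2, Pax6 and Nes, which are expressed in neural progenitors, had Ring1b, Ezh2 and H3K27me3 in ESCs and neither Ring1b nor H3K27me3 in NSCs. Fabp7 was in no list, and Sox1 had no gene record of that name. Peaks alone cannot show which cells were present.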

How the data were processed

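Peaks of Ring1b, Cbx2, Ezh2 and H3K27me3 in ESCs and of Ring1b and H3K27me3 in NSCs were taken from the 6 deposited lists, 1 library each. The 4 input libraries were not analysed here. Per the file headers and values, the lists hold starts and ends on mm9 in bp, and give no peak height or significance. The authors mapped paired-end tags to mm9 (with Bowtie in the methods of the study and BWA in the submitters' processing notes), compared ChIP with input in windows of 1 kb moved by 200 bp, using a negative binomial model, and merged neighbouring enriched windows. Ring1b samples had an added EGS cross-linking step that the sample labels do not mention. Depth per library is unknown, so intervals cover counting error over genes only.

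Genes were taken from GENCODE for NCBIM37, which is mm9, and 0 peaks ended beyond a chromosome. Distances, shares, exact Clopper-Pearson intervals and CpG content were computed in Python 3.11.15 with scipy 1.17.1. The limit that a count of 0 allows was 3 counts of the total. The distance search was tested on simulated data. Genes named are those bound in at least 3 ESC lists, those that kept or gained a peak in NSCs, the 3 widest ESC Ring1b peaks, and further genes by family, chosen after their values were seen. The genes and lists were chosen with earlier results of these data known. With 1 library per group and genes that are not replicates, no test was made, and the background share of all autosomal protein-coding genes, guidance genes included, is given instead. Alternatives were a start site inside a peak, a distance of 5 kb, peaks at least 2 kb wide, any transcript start, any peak over the gene, and fewer members.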

Additional observations from a re-analysis of the deposited data

How the results depend on the processing

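Of 84 recomputed counts, 60 stayed within 1.5 times the reported one. Leaving out Unc5cl, or Unc5cl, Unc50 and the second Efna5 record (chosen after seeing the data), moved none. No count could move there, since none of these records was in any list. Both alternatives, with 12 counts each, are among the 84 and the 60, so that part of the 60 was fixed in advance. The number of guidance genes with ESC Ring1b stayed within 1.5 times under every alternative run, as did the number that lost Ring1b. Counts in the other lists depended on the distance and width asked of a peak. With the start site inside a peak, Cbx2 was at 1 gene and H3K27me3 at 13 in ESCs, and H3K27me3 at 0 in NSCs (background 1.83%). Ring1b was then kept at 2 (background 1.21%) and gained at 1 (background 0.560%). H3K27me3 was kept at 0 (background 1.14%), lost at 13 (background 3.32%) and gained at 0 (background 0.691%). Cbx2 was then near its background (1.47% against 1.20% of all genes), while ESC Ring1b (35.3% against 7.16%), Ezh2 (13.2% against 2.63%) and H3K27me3 (19.1% against 4.46%) stayed above theirs. Peaks at least 2 kb wide left 0 genes with Cbx2, 6 with Ezh2 and 12 with H3K27me3 in ESCs, and 2 with Ring1b and 1 with H3K27me3 in NSCs. The backgrounds were 1.14% for Cbx2, 1.95% for Ezh2 and 3.18% for H3K27me3 in ESCs, and 1.04% for Ring1b and 1.54% for H3K27me3 in NSCs. Ring1b was then kept at 2 (background 0.850%). H3K27me3 was kept at 0 (background 0.948%), lost at 12 (background 2.24%) and gained at 1 (background 0.593%). Within 5 kb, 7 genes had NSC H3K27me3 (background 3.31%) and 5 kept it (background 2.33%). With any transcript start, 1 gene gained H3K27me3 (background 0.794%), since Slit2 then also had it in ESCs. With any peak over the gene, 10 had Cbx2 (background 2.45%) and 7 had NSC H3K27me3 (background 3.74%). H3K27me3 was then kept at 5 (background 2.47%), and Ring1b gained at 2 (background 1.33%). Fewer or more peaks counted is the construction of these alternatives. No paired analysis was possible because each cell type and target had 1 library. Depth is unknown, and binding under the threshold of the authors is not visible.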

Other observations

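Peaks inside guidance genes but more than 1 kb from the 5′ end were few. ESC Ring1b had 3, at Ntn1, Sema6d and Sema6c. The peak at Sema6d (1600 bp, chr2:124435601-124437200) lay at 3 other transcript starts of the gene, 520327 to 520632 bp into it, while the 5′ end had only an Ezh2 peak. The peak at Sema6c (1000 bp) lay 11822 bp into the gene over exons, within an H3K27me3 peak of 2400 bp. At Sema6b an H3K27me3 peak of 4400 bp overlapped 1 exon. It lay 15166 to 19565 bp downstream of the start site and so ran past the end of the gene, which is 17259 bp long.

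NSC Ring1b peaks of 1000 bp lay in introns of Sema3a, 18208 bp from the start site, and of Sema4d, 60516 bp from it. Neither gene had an ESC peak at its start site or within the gene. With the second peak of Nrp2, these made 3 NSC Ring1b peaks inside guidance genes, all 3 intronic and at the smallest width that the lists hold. Of all NSC Ring1b peaks, 29.0% had that width. The 3 NSC H3K27me3 peaks inside guidance genes, at Efna3, Epha7 and Unc5b, were intronic too. ESC Cbx2 had 6 such peaks, of which 5 were intronic, and at Sema3d, Sema5b, Epha10, Epha6 and Ntn4 they stood 14258 to 827757 bp from the start site. A peak anywhere over the gene was found for NSC Ring1b at 8.82% of guidance genes (background 3.45%). For NSC H3K27me3 this was 10.3% (background 3.74%), and for ESC Cbx2 14.7% (background 2.45%). The part of gene length in these shares was not tested.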
